A study of Mus musculus with 14 samples.

Results

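The stomach and the small intestine were compared through the miRNAs sequenced from each, with the small intestine as the organ set against the stomach. Of 1046 mature miRNA names in the table, 32 differed at least 4-fold and had 100 or more reads per 1000000 (RPM) in the higher library. Of these, 22 were higher in stomach and 10 were lower. RPM is counted here over the reads of a library with miR-143 left out of the total, because that name alone held 70.2% of the stomach reads and 53.6% of the small intestine reads. The 32 names were picked by the size of this very difference, so their folds are given as a description and carry no test.

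Both libraries came from C57BL/6J mice, an inbred laboratory strain, with no treatment, genotype, sex or age given in the labels. The series holds 14 tissues with 1 library each, made from total RNA pooled over animals. The number of mice is stated as 5 at harvest and as 10 at pooling, and these were not reconciled. No replicate exists, so intervals cover counting error only, reads without molecular identifiers are not independent molecules, and each statement compares these 2 libraries. Stomach had 8437011 reads, 2511739 of them outside miR-143, and small intestine had 9341000 reads, 4334136 outside miR-143. At 0 reads the upper limit is taken as 3 reads, equal to 1.19 RPM in stomach and 0.692 RPM in small intestine. The libraries of the series labelled colon and uterus go against their labels for intestinal names and are called by those labels below.

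miRNAs are short RNAs cut from a hairpin precursor. They guide repression of messenger RNAs, largely through a seed of bases near the 5′ end, and names that share a seed share many targets. Several are known from an epithelium. miR-203 and miR-205 are known from stratified squamous epithelium, and miR-192, miR-194 and miR-215 from the absorptive lining of the intestine, though not only there. The mouse stomach carries squamous epithelium in its forestomach beside the glandular part, and both organs have a wall of smooth muscle. In bulk tissue, fewer cells of a type and less RNA per cell cannot be told apart. A star marks the arm of a hairpin that older nomenclature took as the scarcer arm.

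The 3 markers of the 2 organs differed in the direction of the labels. All 3 are among the names picked above by the size of this difference, so they are no separate check of the labels. miR-203, known from squamous epithelium, had 14748 RPM in stomach and 2792 RPM in small intestine. The intestinal miR-215 had 3864 RPM in stomach and 365682 RPM in small intestine, and miR-194 had 571 RPM in stomach and 21997 RPM in small intestine.

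The sequences below are those of the names on which the contrast turns, from RefSeq on build GRCm38.p6, written 5′ to 3′ with the seed (bases 2 to 8) in capitals. The first set holds the intestinal names from both hairpin clusters, shown because the clusters differed between the organs.
miR-215: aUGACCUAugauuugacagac
miR-192: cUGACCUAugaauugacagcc
miR-194: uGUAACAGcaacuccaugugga
miR-194-1*: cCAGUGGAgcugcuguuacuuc
miR-194-2*: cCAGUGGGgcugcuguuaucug
miR-215*: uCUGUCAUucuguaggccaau
The squamous names follow, of which both arms of miR-203 passed the rule.
miR-203: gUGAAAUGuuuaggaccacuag
miR-203*: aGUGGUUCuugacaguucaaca
miR-205: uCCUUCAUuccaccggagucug
The last set holds near-identical partners of names that passed, shown so that the bases separating them can be seen.
miR-20b: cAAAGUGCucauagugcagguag
miR-20a: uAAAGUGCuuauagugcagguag
miR-106a: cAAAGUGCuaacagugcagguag
miR-17: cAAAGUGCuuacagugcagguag
miR-196a: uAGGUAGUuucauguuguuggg
miR-196b: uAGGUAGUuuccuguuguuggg
miR-99a: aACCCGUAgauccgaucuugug
miR-100: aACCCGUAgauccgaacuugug

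Sequences were matched for 28 of the 32 names, and those 28 had 28 different seeds, so no seed recurred among them. The seeds did recur across the threshold. miR-215 shares its seed with miR-192, which stood just outside at 3.92-fold lower in stomach, and the mature sequences differ at 3 of 21 positions. miR-20b shares its seed with miR-17, miR-20a, miR-93, miR-106a and miR-106b, and miR-99a with miR-99b and miR-100. The GC content of the mature sequences was alike in both directions, with a median of 47.6% over 18 names higher in stomach and 46.6% over 10 names lower in stomach.

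**Figure D1:**
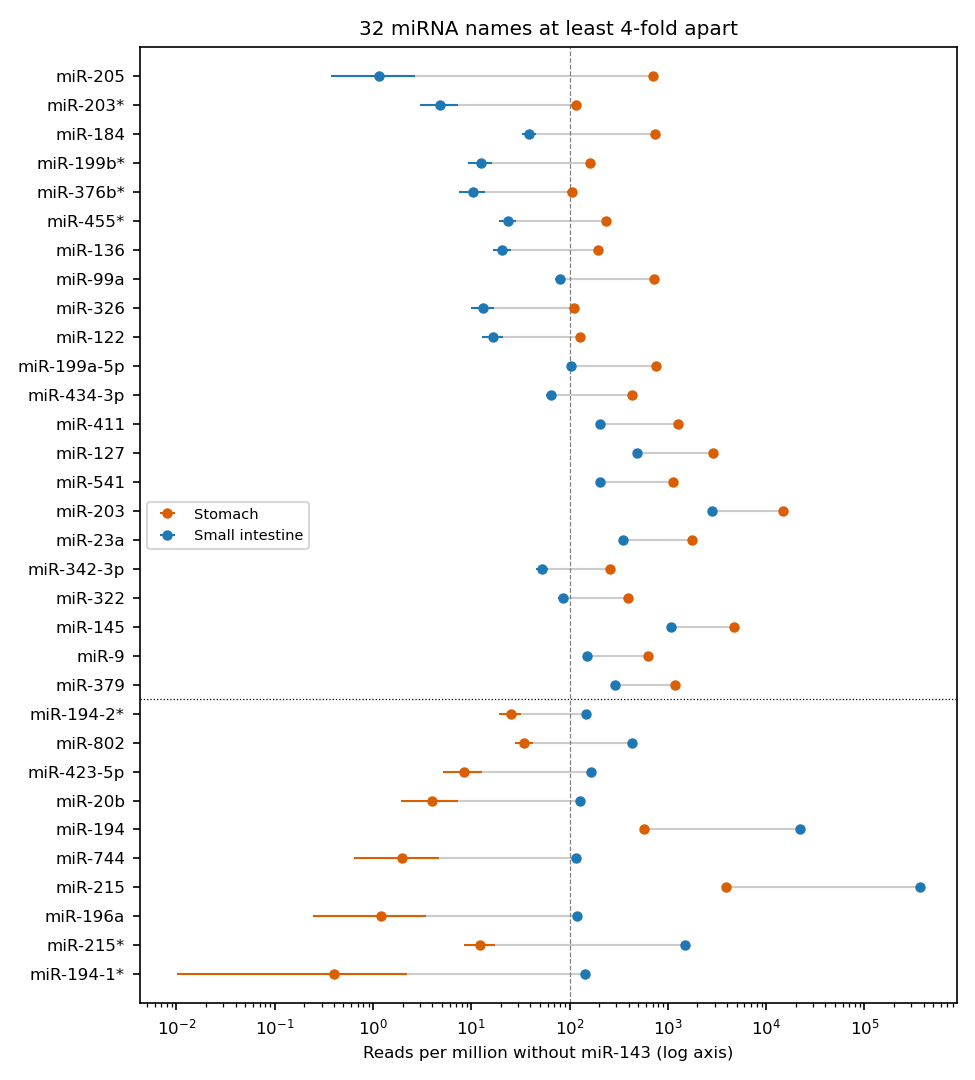
Level of the 32 names in stomach (orange) and small intestine (blue) in RPM without miR-143 on a log axis, with exact 95% Poisson intervals. The dotted line separates the 22 names higher in stomach from the 10 lower ones, and the dashed line marks 100 RPM. miR-215 reached 365682 RPM in small intestine, and 5 reads of miR-205 in small intestine gave 1.15 RPM.

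The 140 names at 100 RPM or more in the higher library give the background for all counts below. Of these, 22.9% passed the rule, 15.7% as higher and 7.14% as lower in stomach. The split depended on the scaling. It was 6 higher and 22 lower with median-of-ratios or TMM factors, 6 and 9 with miR-143 kept in the total, and 21 and 22 with totals without the 7 names that were among the 5 most abundant of either library. Across 287 names at 10 RPM or more in either library the median log2 fold of stomach over small intestine was 1.02, with 223 names above 0. miR-215 alone took 36.6% of the small intestine reads outside miR-143 (95% exact binomial interval 36.5–36.6%), and miR-378 took 49.5% of those in stomach (49.5–49.6%) and 21.2% of those in small intestine. Relative to the rule's totals, the other scalings moved all log2 folds by −0.54 to −0.98. Each scaling moved every fold by the same amount, less than the 4-fold of the rule, so none of the 32 names could change direction. The shifts were all negative, so the 10 lower names could only move further past 4-fold. Of the 22 higher names, 9 stayed past 4-fold under each scaling.

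**Figure D2:**
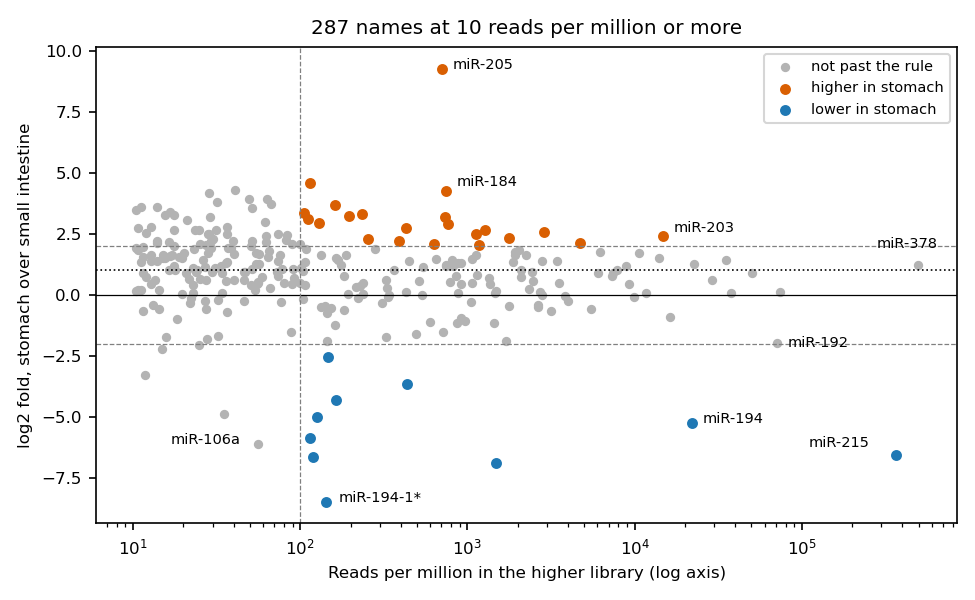
Log2 fold of stomach over small intestine against the level in the higher library (RPM, log axis) for 287 names, with the 22 names higher in stomach in orange and the 10 lower in blue. Dashed lines mark 4-fold and 100 RPM and the dotted line the median of 1.02. The lower names reach far below the bulk, while many higher names lie close to it, and miR-106a stands out below 100 RPM.

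Intestinal epithelial miRNAs made up the deepest part of the contrast. The 10 names lower in stomach held 0.452% of the stomach reads outside miR-143 and 39.0% of the small intestine reads outside miR-143, nearly all of it miR-215. miR-215 had 9706 reads in stomach and 1584916 reads in small intestine, 94.6-fold lower in stomach (92.8–96.5). Its star arm had 31 reads in stomach and 6408 reads in small intestine, 120-fold lower (84.3–176). Both arms of this hairpin were thus far scarcer in stomach. miR-194 was 38.5-fold lower in stomach (36.5–40.6). miR-192 missed the rule, with 18135 RPM in stomach and 71090 RPM in small intestine. Liver (51510 RPM), kidney (30974 RPM) and the library labelled uterus (60551 RPM) also held more of it than stomach.

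These names come from a pair of hairpin clusters, and the stomach to small intestine ratio followed the cluster. Mir194-1 and Mir215 lie 195 bases apart on the plus strand of chromosome 1 (chr1:185313319-185313692), and Mir194-2 and Mir192 lie 115 bases apart on the plus strand of chromosome 19 (chr19:6264643-6264932), per RefSeq on GRCm38.p6. The mature miR-194 is the same from both, but the star arms differ and report on their own locus. miR-194-1*, from chromosome 1, had 1 read in stomach and 616 reads in small intestine, a ratio of 357 (63.8–14123). miR-194-2*, from chromosome 19, had 63 reads in stomach and 634 reads in small intestine, 5.83-fold lower in stomach (4.50–7.68). The star arm of miR-192, also from chromosome 19, had 15 reads in stomach and 108 reads in small intestine, 4.17-fold lower (2.42–7.71). The names specific to chromosome 1 were thus 94.6-fold to 357-fold lower in stomach and those specific to chromosome 19 between 3.92-fold and 5.83-fold lower, with no overlap of their intervals. miR-194 itself lay between them.

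**Figure D3:**
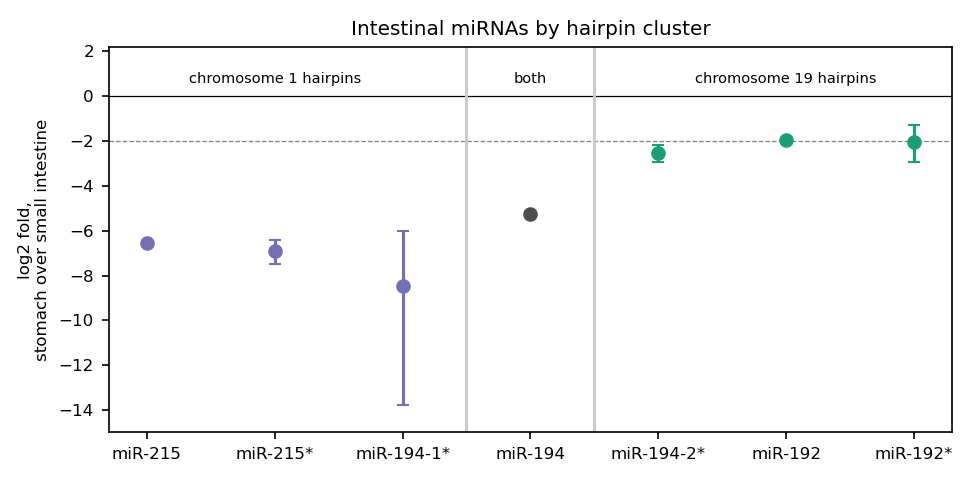
Log2 fold of stomach over small intestine, with exact 95% conditional binomial intervals, for miRNAs of the chromosome 1 hairpins (purple), of the chromosome 19 hairpins (green) and for miR-194, which both encode (grey). The chromosome 1 names lie at −6.56 or below and the chromosome 19 names at −2.54 or above; the dashed line marks 4-fold lower.

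A share within such a pair needs no library total, so no scaling moves it. These pairs were chosen after their values were seen. Of the reads of both miR-194 star arms, miR-194-1* held 1.56% in stomach (1 of 64 reads, 95% exact binomial interval 0.0396–8.40%) and 49.3% in small intestine (616 of 1250 reads, 46.5–52.1%). In the other libraries with at least 20 reads of the pair this share was 52.2% in oesophagus, 36.4% in lung, 0.224% in liver and 0% in kidney, and it was 5.21% in the library labelled uterus. Of the reads of miR-215 and miR-192, miR-215 held 17.6% in stomach (17.2–17.9%) and 83.7% in small intestine (83.7–83.8%), between the highest share in oesophagus (91.9%) and the lowest in kidney (0.598%). Lung had 66.9% and the library labelled uterus 66.2%. miR-192 and miR-215 differ by few bases, and how the authors counted reads that match several names is not given in the sources used here.

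The stomach library did hold intestinal miRNAs at levels above most other organs. With 3864 RPM of miR-215 it ranked 5th of 14, behind small intestine, the library labelled uterus (118373 RPM), oesophagus (18309 RPM) and lung (7983 RPM). For miR-194 it also ranked 5th, behind small intestine, the library labelled uterus (3580 RPM), liver (2263 RPM) and kidney (2174 RPM). Liver, kidney and pancreas had 412, 186 and 35.2 RPM of miR-215. Whether these reads come from cells of the stomach itself was not tested.

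A second chromosomal cluster set the organs apart in the same way. miR-20b belongs to a cluster on the X chromosome that is a copy of the growth-linked miR-17~92 cluster on chromosome 14, and it had 10 reads in stomach and 548 reads in small intestine, 31.8-fold lower in stomach (17.1–66.6). Its X-linked neighbours did not reach 100 RPM. miR-106a had 2 reads in stomach and 242 reads in small intestine, a ratio of 70.1 (19.2–582). miR-363-3p, named after its values were seen, had 3 reads in stomach and 151 reads in small intestine, a ratio of 29.2 (9.79–143). miR-18b had 0 reads in stomach and 51 reads in small intestine, at least 9.85-fold lower in stomach on a floor of 3 reads per library.

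The direct counterparts miR-20a and miR-17 on chromosome 14 differed less. miR-20a had 395 RPM in stomach and 873 RPM in small intestine, 2.21-fold lower in stomach, and miR-17 had 272 RPM in stomach and 594 RPM in small intestine, 2.18-fold lower. Other names of that cluster were 2.90-fold lower for miR-18a (2.26–3.76) and 4.71-fold lower for miR-19a (2.25–11.4), the second from 8 reads in stomach and 65 reads in small intestine. miR-92a, which both clusters encode, was 2.89-fold lower. All 12 measured names of the miR-17~92 cluster and its copies had a log2 fold below 0, with a median of −1.34, against 1.02 over the 287 names, but 1 of them passed the rule. Of the 12, miR-20b, miR-106a, miR-18b and miR-19a reached 10 RPM in small intestine only, so their low folds were partly built in. miR-20b held 0.999% of the reads of miR-20a and miR-20b in stomach (0.480–1.83%) and 12.7% in small intestine (11.7–13.7%). The same share was 13.8% in kidney, 8.87% in spleen and 1.72% in oesophagus. miR-106a held 0.292% of its reads with miR-17 in stomach (0.0353–1.05%) and 8.59% in small intestine (7.58–9.69%), although those mature sequences differ at 1 of 23 positions.

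Of the 4 measured miRNAs encoded inside Hox gene clusters, whose genes set position along the body, miR-196a alone passed the rule. It had 3 reads in stomach and 517 reads in small intestine, a ratio of 99.9 (34.0–486). Its counterpart miR-196b, which differs at 1 of 22 positions and comes from another Hox cluster, had 12 reads in stomach and 43 reads in small intestine, 2.08-fold lower in stomach (1.08–4.33). miR-196a held 20% of the reads of both in stomach (3 of 15 reads, 4.33–48.1%) and 92.3% in small intestine (89.8–94.4%), the highest share of the 8 libraries with at least 20 reads of the pair. Kidney, the library highest in miR-196a at 2927 RPM, had 30.5%. miR-10a, also a Hox-cluster miRNA, was nearly level at 9384 RPM in stomach and 9928 RPM in small intestine, which is below the median fold of all names.

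**Figure D4:**
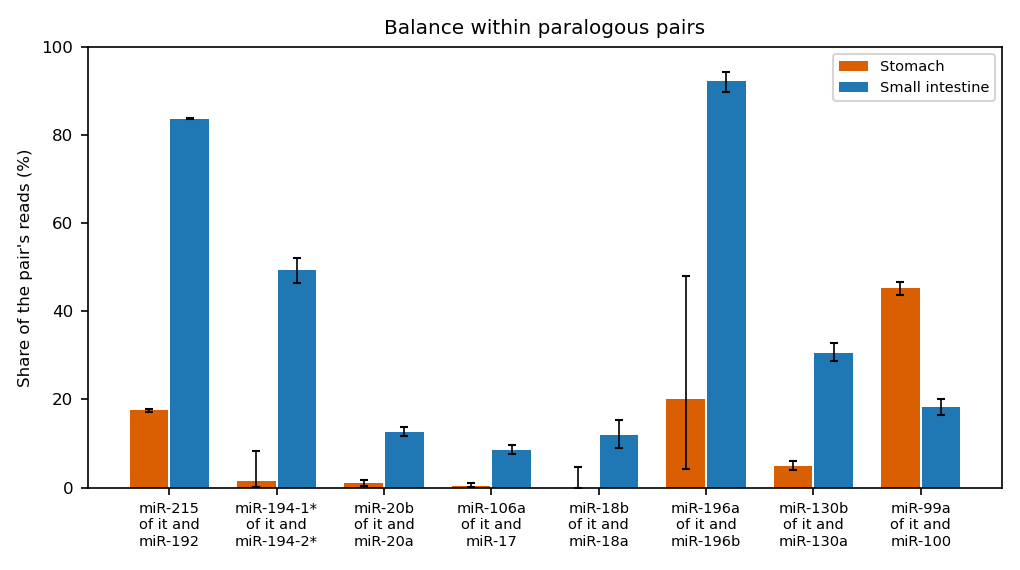
Share of reads, with exact 95% binomial intervals, held by the first name of 8 pairs of related miRNAs in stomach (orange) and small intestine (blue). The first name holds less of its pair in stomach in 7 pairs, for example 17.6% in stomach and 83.7% in small intestine for miR-215, and more in stomach for miR-99a at 45.2% in stomach and 18.2% in small intestine.

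The other 3 names lower in stomach belong to no such cluster. miR-802, known from liver and pancreas, had 34.6 RPM in stomach and 436 RPM in small intestine, 12.6-fold lower in stomach (10.1–15.8). Small intestine was the highest of all 14 libraries for it, ahead of pancreas with 303 RPM. Of the acinar miRNAs of pancreas, miR-216a had 20.7 RPM in stomach and 11.1 RPM in small intestine, and miR-217 had 35.8 RPM in stomach and 24 RPM in small intestine. Both lay below the median fold of the 287 names, and their median log2 fold of 0.74 turned to −0.24 with median-of-ratios or TMM factors. miR-744 had 5 reads in stomach and 499 reads in small intestine, 57.8-fold lower (24.6–179). miR-423-5p had 21 reads in stomach and 714 reads in small intestine, 19.7-fold lower (12.8–32). The other arm of that hairpin, miR-423-3p, had 86.4 RPM in stomach and 146 RPM in small intestine, so the 5p arm held 8.82% of the hairpin's reads in stomach (5.55–13.2%) and 53.1% in small intestine (50.4–55.8%). Stomach was the lowest of the 14 libraries for both miR-744 and miR-423-5p, and small intestine ranked 7th and 8th for them. For miR-744 the order at the low end is within counting error, since liver had 3.02 RPM and the stomach interval was 0.646–4.65 RPM.

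Squamous epithelial miRNAs led the names higher in stomach. miR-205 had 1775 reads in stomach and 5 reads in small intestine, 613-fold higher in stomach (262–1889). In RPM it stood at 707 in stomach and 1.15 in small intestine. Only oesophagus, which is lined by squamous epithelium along its length, exceeded stomach, with 1171 RPM, and the library labelled uterus came next with 64.5 RPM. miR-203* had 115 RPM in stomach and 4.85 RPM in small intestine, 23.7-fold higher (15.2–39.0), and again only oesophagus was higher, at 120 RPM. miR-203 was 5.28-fold higher in stomach (5.17–5.39), below oesophagus at 25352 RPM.

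The arms of the miR-203 hairpin did not differ by the same ratio. miR-203* held 0.774% of the reads of both arms in stomach (0.688–0.868%) and 0.173% in small intestine (0.107–0.265%). Stomach thus had 289 reads of the star arm and 1775 reads of miR-205 beside 37044 of miR-203, and small intestine had 21 and 5 beside 12103. All 3 measured squamous names passed the rule as higher, where 15.7% of the 140 names did. That count is a description only, since the list was chosen with earlier results of these data known. miR-203 and miR-203* come from the same hairpin, and miR-203* and miR-205 reached 10 RPM in stomach only. miR-205 alone still passed with miR-143 kept, median-of-ratios or TMM factors. There miR-203 fell short of 4-fold, with a log2 fold of 1.42 under median-of-ratios, and miR-203* fell short of 100 RPM.

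Under the totals of the rule, imprinted Dlk1-Dio3 miRNAs gave the most names higher in stomach of any list, but theirs was the longest list, with 43 names. Of its 7 names at 100 RPM, 6 passed as higher, against 15.7% of the 140 names. miR-376b* passed from outside the list, and the lists were chosen with earlier results of these data known. This cluster on chromosome 12 is expressed from the maternal chromosome and is known from brain and developing tissues. It supplied 7 of the 22 names: miR-127, miR-136, miR-376b*, miR-379, miR-411, miR-434-3p and miR-541. Of these 7, only miR-136 still passed with median-of-ratios or TMM factors, and only miR-411 and miR-434-3p with miR-143 kept in the total. miR-127 had 2867 RPM in stomach and 484 RPM in small intestine, 5.92-fold higher in stomach (5.64–6.22). miR-411 had 1279 RPM in stomach and 203.5 RPM in small intestine, 6.28-fold higher (5.83–6.78). miR-136 was 9.43-fold higher (7.52–11.9) and miR-376b* 10.2-fold (7.41–14.3), both from 90 or fewer reads in small intestine. miR-434-3p was 6.66-fold (5.84–7.62), miR-541 5.60-fold (5.19–6.04) and miR-379 4.05-fold (3.79–4.33) higher.

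The other names of the cluster that reached 10 RPM lay on the same side. Of 41 listed names, 21 reached 10 RPM in either library. All 21 had a log2 fold above the median of the 287 names, from 1.44 to 3.56 with a median of 2.48. The lowest of these exceeds the −0.98 shift, so all 21 stay above 0 under every scaling tried. The 21 include 6 names that the rule itself had picked as higher. Most of the others, such as miR-376a and miR-410, reached 10 RPM in stomach only, so a high fold was partly built in for them too. Among the names below 10 RPM, miR-485 went the other way, with 1 read in stomach and 7 reads in small intestine. Arms from a shared hairpin went together, with miR-136* 7.82-fold (5.36–11.7) and miR-434-5p 5.31-fold (3.85–7.44) higher in stomach. The listed names and miR-376b* summed to 7983 RPM in stomach and 1455 RPM in small intestine. Stomach ranked 3rd of the 14 libraries by this sum, behind cerebellum (85063 RPM) and brain (52666 RPM) and before oesophagus (6884 RPM). The 3 lowest sums were in heart, liver and kidney, between 194 and 596 RPM.

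Of the neural names outside that cluster, miR-9 passed the rule. miR-9, a miRNA of neural progenitors and neurons, had 628 RPM in stomach and 149 RPM in small intestine, 4.21-fold higher (3.84–4.62), an interval that reaches below 4. miR-124, a neuronal miRNA, had 67.3 RPM in stomach and 5.08 RPM in small intestine, 13.3-fold higher (8.47–21.7). Of 11 measured neural names, 7 lay above the median fold of all names and 4 below it, with a median log2 fold of 1.27. miR-137 and miR-138 did not follow miR-124: miR-137 had 39.0 RPM in stomach and 46.1 RPM in small intestine, and miR-138 had 363 RPM in stomach and 180 RPM in small intestine. miR-326, known from brain, was 8.48-fold higher in stomach (6.36–11.5). The part of nerve cells in the wall of either organ was not tested.

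The smooth muscle name miR-145 and 2 mesenchymal names also passed as higher in stomach. miR-145, which regulates smooth muscle differentiation and shares a precursor with miR-143, had 4709 RPM in stomach and 1085 RPM in small intestine, 4.34-fold higher (4.20–4.49). Stomach was the highest library for it, followed by small intestine and then oesophagus at 928 RPM. miR-145* was 2.22-fold higher, and miR-143, set against all other reads, was 2.04-fold higher, with 2.36 reads in stomach and 1.16 reads in small intestine for each read of another name. The median fold of the 287 names was 2.02.

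The miR-199 hairpins, active in fibroblasts and other mesenchymal cells, split by arm. miR-199a-5p had 766 RPM in stomach and 103 RPM in small intestine, 7.46-fold higher in stomach (6.73–8.29). miR-199b* had 161 RPM in stomach and 12.5 RPM in small intestine, 12.9-fold higher (9.72–17.5). Stomach was first of the 14 libraries for both, but for miR-199b* lung had 138 RPM and the library labelled colon 150 RPM from 13 reads, which is within counting error of stomach. The opposite arms missed the rule, at 3.13-fold for miR-199a-3p and 3.13-fold for miR-199b. These 3p names share an identical sequence from 3 hairpins, and their read ratio lay between 1.96 and 2.02 in the 12 libraries with at least 20 reads of miR-199b, so their folds are not separate measurements. miR-214, from the same transcript as a miR-199a hairpin, had 79.6 RPM in stomach and 56.8 RPM in small intestine, a difference that turns to lower in stomach with miR-143 kept, median-of-ratios, TMM or top-name-free totals. Of 7 measured mesenchymal names, 4 lay above the median fold of the 287 names and 3 below it. Those below were miR-214, miR-140 (238 RPM in stomach, 232 RPM in small intestine) and miR-140* (2340 RPM in stomach, 2000 RPM in small intestine).

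Single names completed the set higher in stomach. miR-184, known from cornea and brain, had 744 RPM in stomach and 38.8 RPM in small intestine, 19.2-fold higher (16.4–22.6), while oesophagus had 13.3 RPM. It therefore did not follow miR-203 and miR-205 between those organs. miR-99a had 730 RPM in stomach and 79.6 RPM in small intestine, 9.17-fold higher (8.17–10.3), whereas miR-100, which differs from it at 1 of 22 positions, was 2.47-fold higher. miR-455*, from a collagen gene intron, had 233 RPM in stomach and 23.5 RPM in small intestine, 9.91-fold higher (8.02–12.4), but its other arm had 24 reads in stomach and 62 reads in small intestine. miR-23a, from a cluster with miR-24-2 and miR-27a, was 5.03-fold higher (4.74–5.34). Its cluster mates differed less and missed the rule. miR-27a had 742 RPM in stomach and 317 RPM in small intestine, and miR-24 had 7400 RPM in stomach and 3959 RPM in small intestine. miR-322, whose seed is that of the miR-15 and miR-16 family, was 4.60-fold higher (4.07–5.19), but miR-322* had 25 reads in stomach and 57 reads in small intestine. miR-342-3p was 4.86-fold higher (4.17–5.68), while its other arm, miR-342-5p, was 1.33-fold higher (0.924–1.90).

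The hepatocyte miRNA miR-122 also passed as higher in stomach, with 129 RPM in stomach and 16.6 RPM in small intestine, 7.77-fold (6.00–10.2). Liver had 466024 RPM of it. The other libraries away from liver ranged from 10.0 RPM in pancreas to 573 RPM in kidney and 1340 RPM in the library labelled colon. Spleen with 151 RPM and brain with 87.7 RPM were nearer to stomach. Whether RNA from liver contributed was not tested.

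Of 4 measured red cell names, 3 lay above the median fold of the 287 names and 1 below it. miR-451, abundant in red cells, had 107 RPM in stomach and 42.0 RPM in small intestine, and miR-144* had 188 RPM in stomach and 61.4 RPM in small intestine. miR-486 was the one below, with 54.9 RPM in stomach and 40.1 RPM in small intestine. The white cell miRNA miR-142-3p had 464 RPM in stomach and 1703 RPM in small intestine, 3.67-fold lower in stomach (3.45–3.91), just outside the rule, and it passed under each other scaling. All 7 measured white cell names lay below the median fold of all names, but they split in direction. Of the 7, 3 had a log2 fold above 0, such as miR-150 with 73.3 RPM in stomach and 42.9 RPM in small intestine. The miR-200 family, shared by epithelia, had 8 measured names with log2 folds between −0.90 and 0.18, all below the median fold of the 287 names. Its most abundant name, miR-200c, had 8736 RPM in stomach and 16273 RPM in small intestine, and the 9 listed names summed to 20313 RPM in stomach and 29912 RPM in small intestine. Of 3 measured endocrine names, miR-375 was level, at 528 RPM in stomach and 533 RPM in small intestine. The others were lower in stomach. miR-7a had 453 RPM in stomach and 963 RPM in small intestine, and miR-7b had 68.9 RPM in stomach and 162 RPM in small intestine. With median-of-ratios factors miR-375 and all 8 miR-200 names are lower in stomach, since that scaling moves each log2 fold by −0.98.

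Common families gave few or no names to the contrast. All 9 let-7 names lay below the median fold of the 287 names, with log2 folds from 0.07 to 0.89, and their median of 0.44 turns negative under the scalings that shift it by −0.54 or more. All 5 names of the miR-99, miR-100 and miR-125 group lay above that median, with a lowest log2 fold of 1.16, and miR-99a passed. The 3 miR-29 names lay between 1.37 and 1.41. The 3 measured muscle names from outside smooth muscle also lay above the median fold of the 287 names, which was 2.02. miR-1, of heart and skeletal muscle, had 14035 RPM in stomach and 4967 RPM in small intestine. miR-206, of skeletal muscle, had 30.3 RPM in stomach and 6.23 RPM in small intestine. It had the highest fold of the 3, but reached 10 RPM in stomach only. miR-133a had the lowest, with 54.1 RPM in stomach and 22.8 RPM in small intestine. Below 10 RPM, miR-208b went the other way, with 0 reads in stomach and 4 reads in small intestine. The part of striated muscle in these libraries was not tested.

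The levels in the other 12 tissues are given as a description, since the rule itself required a high level in one organ and a lower one in the other. For the 22 names higher in stomach, brain or cerebellum was the highest of the 14 libraries for 10 names, oesophagus for 4 and stomach for 3. Of the 10 names lower in stomach, 6 had their highest level of the 14 libraries in small intestine. miR-194-2* was highest in the library labelled uterus. The highest library was not counted over all names at 100 RPM, so whether these counts are unusual was not tested. Brain also had the most names at 100 RPM or more of any library, with 150.

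**Figure D5:**
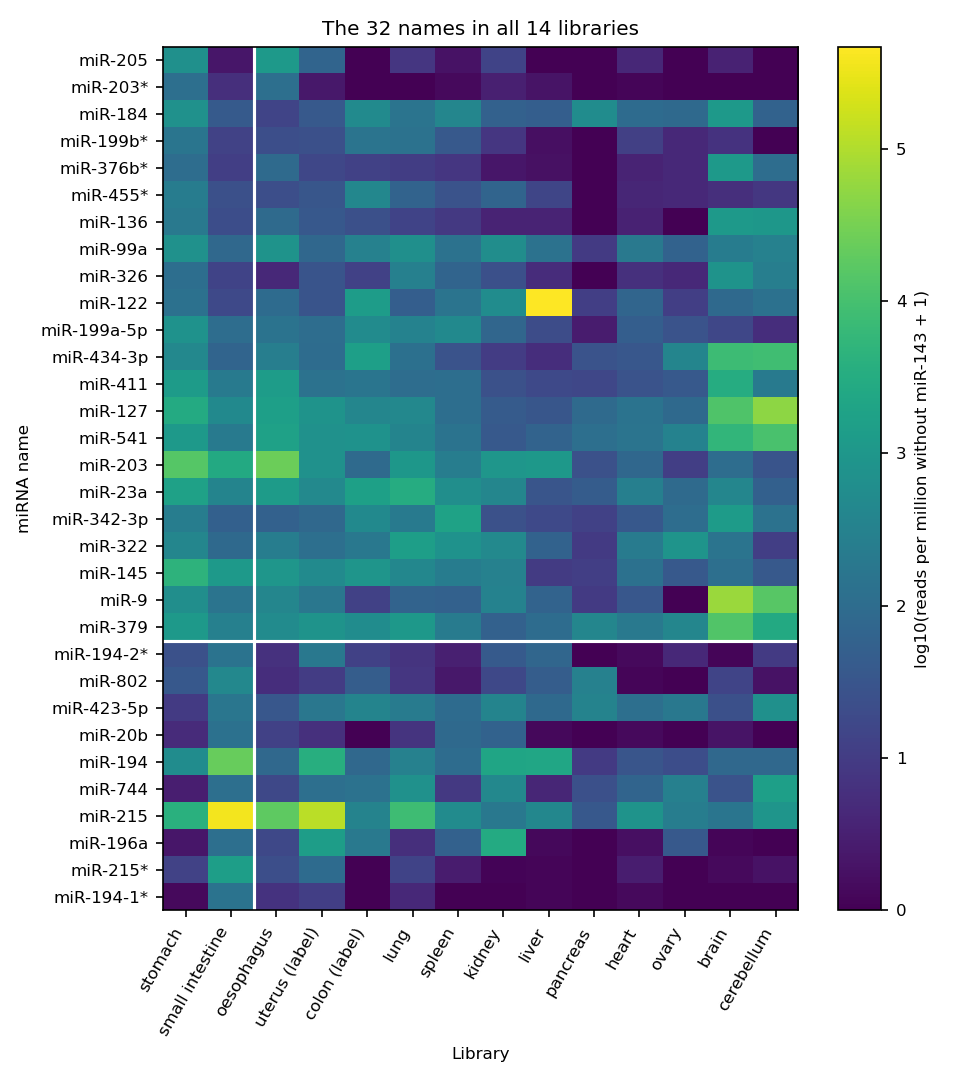
Level of the 32 names in all 14 libraries as log10(RPM without miR-143 + 1), with names in order of their fold and a white line between the 22 names higher and the 10 lower in stomach. Oesophagus shares the bright miR-203 and miR-205 cells of stomach, brain and cerebellum lead for the Dlk1-Dio3 names and miR-9, and miR-215 is brightest in small intestine and the library labelled uterus.

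As a pair, stomach and small intestine were among the least different of the series. The same rule was applied to all 91 pairs of libraries, which share libraries with each other. The median pair had 77 names past it, or 60.8% of the names at 100 RPM. Stomach and small intestine, at 22.9%, came 3rd from the lowest, after small intestine with the library labelled uterus (13 names, 10.8%) and stomach with oesophagus (31 names, 21.5%), and before stomach with the library labelled uterus (32 names, 24.1%).

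At the edges of the rule, counting error touched few names. The 5 higher names nearest above 4-fold ranged from 4.05-fold (miR-379) to 4.86-fold (miR-342-3p), and the 5 nearest below it from 3.39-fold (miR-30a*) to 3.70-fold (miR-24-2*). Only miR-379 and miR-9 of the 32 had intervals that reached below 4, while the interval of miR-24-2* reached 4.24. On the lower side the nearest inside was miR-194-2* and the nearest outside were miR-192, miR-130b (3.73-fold lower in stomach, 3.01–4.67) and miR-142-3p. By level, miR-376b* stood just inside at 106 RPM, and miR-382, another Dlk1-Dio3 name, just outside at 99.1 RPM in stomach, 4.21-fold higher than in small intestine.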

How the data were processed

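The deposited table holds unscaled read counts, whole numbers for each mature miRNA, for 14 libraries of 1 pooled RNA sample each. Per the labels' protocols, total RNA was extracted with Trizol and libraries followed standard Illumina protocols. How reads were trimmed and aligned, and to which miRNA release, is not given in the sources used here, nor is the counting of reads that match several names, so near-identical names may share reads.

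Counts were divided by the library total without miR-143 and multiplied by 1000000. A name passed at a fold of 4 or more with at least 100 RPM in the higher library. Where a library had 0 reads, 3 were used as a floor, and names with at most 3 reads in both have no fold. Levels have exact Poisson intervals, shares exact Clopper-Pearson intervals and folds exact conditional binomial intervals, all at 95%. With 1 library per tissue no test was run. The 32 lists hold 214 distinct names, of which 5 had no match, and were described over names at 10 RPM or more. Members, lists and named miRNAs (all names past the rule, list members, other arms, names nearest the thresholds) were chosen with earlier results of these data known. TMM factors came from edgeR 4.0.16 in R 4.3.3; the rest used Python 3.11.15 with scipy 1.17.1, tested on simulated counts. Mature sequences and positions are RefSeq's on GRCm38.p6 and were matched by name and arm; miR-122, miR-145, miR-199b* and miR-455* were not matched.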

Additional observations from a re-analysis of the deposited data

How the results depend on the processing

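The counts of names past the rule, 22 higher and 10 lower in stomach (32 in all), depended on scaling, level and fold. With miR-143 kept in the total, 6 were higher and 15 passed in all. With median-of-ratios or TMM factors, 6 were higher and 22 lower. Totals without the most abundant names gave 22 lower. A minimum of 10 RPM gave 65 higher and 80 in all, a minimum of 1000 RPM gave 7 higher, 3 lower and 10 in all, and no minimum gave 112, 22 and 134. A fold of 2 gave 58 higher, 21 lower and 79 in all, and a fold of 8 gave 9 higher and 18 in all. Adding 1 or 10 RPM, asking that the interval clear 4-fold (20 higher, 10 lower) and counting identical names once moved no count by more than 1.5 times. Under the 4 other scalings 3 of the higher and 4 of the lower names kept both their fold and their level in each; with miR-143 kept, names near 100 RPM drop below that level by construction. No fold of the 32 names changed sign under any scaling or added value tried. None could, since the shifts were smaller than 4-fold and a value added to both libraries keeps their order. The median count over 91 pairs was 77, and 66 with miR-143 kept. No paired analysis was possible because each tissue has 1 library. Names with 10 or fewer reads in stomach (miR-194-1*, miR-196a, miR-744, miR-20b) have wide intervals, and depth limits their folds.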
